A study of Mus musculus with 42 samples.

Results

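Red blood cell genes were examined in RNA captured with phosphorylated ribosomes from the mouse main olfactory epithelium. Of the 44674 genes counted, 7 were followed: the adult α-globin genes Hba-a1 and Hba-a2, the adult β-globin genes Hbb-bs and Hbb-bt, the haem enzyme gene Alas2, the anion exchanger gene Slc4a1 and the red cell metabolic enzyme gene Bpgm. They were chosen by their measured pulldown and input values in these same libraries, so those values are given as a description, with no test. All 7 were higher in the pulldown than in the input of each of the 21 pools, by fitted ratios of 4.46-fold to 6.00-fold for the globins, 2.43-fold for Slc4a1, 1.59-fold for Bpgm and 1.44-fold for Alas2. Of all 21168 genes fitted, 32.3% were higher in the pulldown at an adjusted p under 0.001 (edgeR's quasi-likelihood test). A higher ratio than that of Bpgm was held by 16.4% of them, and than that of Alas2 by 21.2%. Under the odours the fitted ratios of the globins differed from those without odour by 0.03 to 0.28 on the log2 scale, with errors of 0.17 to 0.23.

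The study dealt with early-life exposure to fat-related odours, and this experiment in adult mice compared the olfactory receptors that food odours activate. Adult male C57BL/6NCrl mice of 8 to 12 weeks smelled no odour, normal chow diet (NCD), bacon-flavoured diet (BFD) or a lard-based high-fat diet (HFDlard) for 1 h. Epithelia of 4 mice were pooled into 1 homogenate, and 2 libraries were sequenced per pool. The input library is RNA of the whole homogenate, and the pulldown library is RNA on ribosomes that an antibody to phosphorylated ribosomal protein S6 had bound. There were 5 pools without odour, 6 with NCD, 5 with BFD and 5 with HFDlard odour. The labels name no transgene, so the pulldown was not restricted to a cell type other than through the antibody, and each value is that of 4 animals together. The sources used here do not mention perfusion of the animals, and the part of blood in the dissected tissue was not measured.

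Erythroid cells make haemoglobin, a tetramer of α- and β-globin chains that carry haem. Their precursors in the bone marrow switch on the globins, the haem pathway and a dedicated membrane skeleton under the transcription factors Gata1, Klf1 and Tal1, then lose their nucleus, and the reticulocytes that enter the blood still hold ribosomes and globin mRNA until they mature. The olfactory epithelium is not a site where red cells are made. It consists mainly of olfactory sensory neurons, supporting cells and basal cells above a vascularised lamina propria. In tissue RNA from bulk samples such as these, fewer cells of a type and less RNA per cell cannot be told apart.

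The α-globin genes lie on chromosome 11 (GRCm38, plus strand), Hba-a1 at chr11:32283511-32284465 and Hba-a2 at chr11:32296489-32297298. The β-globin genes lie on chromosome 7, minus strand, Hbb-bs at chr7:103826534-103828096 and Hbb-bt at chr7:103812524-103813996. Alas2 is at chrX:150547375-150570638 (plus), Slc4a1 at chr11:102348824-102366203 (minus) and Bpgm at chr6:34476207-34505613 (plus). All 7 are annotated as protein coding. Within each globin pair the coding sequences differ at 1 base and no residue: over 429 bases for Hba-a1 and Hba-a2 and over 444 bases for Hbb-bs and Hbb-bt. The windows around these positions, in coding exon 3, are shown because they carry the only base by which a coding read could be given to one gene of a pair (GRCm38, capital at the differing position, read along the gene):
Hba-a1, chr11:32284323-32284363: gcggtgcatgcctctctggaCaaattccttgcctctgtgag
Hba-a2, chr11:32297140-32297180: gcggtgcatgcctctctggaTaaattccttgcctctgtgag
Hbb-bs, chr7:103826672-103826712: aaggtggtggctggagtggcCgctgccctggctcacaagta
Hbb-bt, chr7:103812663-103812703: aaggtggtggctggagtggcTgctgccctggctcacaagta
Counted from 1 at the start codon, the α pair differed by C381T (Hba-a1 first) and the β pair by C417T (Hbb-bs first). Of the 31-base words in the transcripts of Hba-a2, 92.6% also occurred in another gene's transcripts, against 75.5% for Hba-a1, 59.4% for Hbb-bt, 54.4% for Hbb-bs, 13.1% for Alas2 and 0% for Slc4a1 and Bpgm. Reads of shared words were divided between genes by the counting program's estimate, so the values of Hba-a1 and Hba-a2, and of Hbb-bs and Hbb-bt, are uncertain singly. The sum of each pair does not depend on that division.

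Of the 6 members with a promoter window in RefSeq (GRCm38.p6, 300 bases around the start), 5 held a GATAA, the letters that the GATA factors of erythroid cells read, on one strand or the other, whereas 25.4% of all 32851 such windows did. They are shown because all 4 globins share the letters upstream of their RefSeq start, with TTATC marking the same letters on the opposite strand:
Hba-a1, chr11:32283474-32283510: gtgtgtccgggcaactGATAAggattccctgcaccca
Hba-a2, chr11:32296279-32296339: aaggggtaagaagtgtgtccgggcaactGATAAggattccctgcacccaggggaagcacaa
Hbb-bs, chr7:103828105-103828165: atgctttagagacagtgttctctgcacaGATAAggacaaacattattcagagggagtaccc
Hbb-bt, chr7:103814095-103814155: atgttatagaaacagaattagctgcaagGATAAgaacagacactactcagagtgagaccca
Alas2, chrX:150547303-150547363: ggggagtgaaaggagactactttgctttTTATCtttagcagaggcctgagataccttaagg
The capitals begin 182, 185, 209, 204 and 86 bases before the RefSeq start in the order printed. CACCC, the core of the letters read by Klf1, was in 5 of the 6 windows (57.5% of all windows) and CCAAT was in 5 (37.4% of all), also counted on both strands. The Bpgm window held CCAAT alone. The globin genes of each pair are near-identical copies in their coding sequence, so their windows do not count as independent. None of these matches was tested as a binding site.

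Libraries held 24839555 to 36781553 estimated counts, and values below are in CPM, counts scaled to the library total with TMM factors. Ribosomal RNA genes took 21.7 to 32.2% of counts in the 5 inputs without odour and 9.75 to 21.9% in the 16 inputs with odour. In the pulldowns these shares were 14.6 to 28.5% without odour and 10.7 to 21.7% with odour. The ribosomal share therefore moved with the odour contrast, most of all in the inputs, and its part in the results was not tested. At the ends of the members' summed level stood 1 input and 1 pulldown. The input of no-odour pool 4 held the highest summed level of the 7 members, 922 CPM against 465.7 to 814 CPM in the other 20 inputs. It also held 5891 CPM of the 11 glycolysis genes listed below against 3426 to 4734 CPM elsewhere, 314 CPM of 8 macrophage genes against 185 to 252 CPM, and 356 CPM of 8 B cell genes against 453 to 594 CPM. The next highest input, that of HFDlard pool 6, was at 814 CPM of the members and had the highest level of 11 neutrophil genes, 172 CPM. The pulldown of BFD pool 1 held the lowest summed level of the 7 members, 1536 CPM against 1795 to 3090 CPM in the other 20 pulldowns. It also held the highest level of 5 supporting cell genes, 4190 CPM against 1544 to 3021 CPM. The members' fitted ratios, odour changes and input differences are given below with and without no-odour pool 4 and BFD pool 1.

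Hba-a2 and Hba-a1 encode the adult α-globin chain. Hba-a2 stood at 695, 684, 725, 675 and 462 CPM in the pulldowns of no-odour pools 1, 2, 3, 4 and 6, beside 100.1, 119, 109, 203 and 92.8 CPM in their inputs. Over the 6 NCD pools the lowest, median and highest Hba-a2 values were 536, 704 and 836 CPM in the pulldowns and 92.95, 105 and 128 CPM in the inputs. BFD pools 1 to 5 held 381, 802, 758, 627 and 743 CPM of Hba-a2 in the pulldowns and 101, 103, 77.5, 107 and 108 CPM in the inputs. In BFD pool 1 the pulldown was the lowest of all 21, and in no-odour pool 4 the input was the highest of all 21. HFDlard pools 1, 2, 3, 5 and 6 held 694, 665, 680.1, 696 and 695 CPM of Hba-a2 in the pulldowns and 118, 72.96, 109, 126 and 169 CPM in the inputs. The 5 HFDlard pulldowns lay close together while their inputs ranged from 72.96 to 169 CPM. Over all pools Hba-a2 averaged 672 ± 105 CPM in the pulldowns and 113 ± 28.4 CPM in the inputs (SD, n = 21 each). No pulldown overlapped with any input: the lowest pulldown, 380.8 CPM, was above the highest input, 203 CPM. The share of all genes whose pulldowns and inputs separate so was not counted. Nothing is read from it, here or for the members below. The fitted log2 ratio of pulldown to input, averaged over the 4 odour groups, was 2.59 ± 0.08 (SE), a 6.00-fold level.

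Hba-a1 followed the same course at a lower level. Hba-a1 stood at 328, 325, 368, 343 and 236 CPM in the pulldowns of no-odour pools 1, 2, 3, 4 and 6, beside 48.2, 54.9, 52.03, 99.5 and 46.5 CPM in their inputs. Over the 6 NCD pools the lowest, median and highest Hba-a1 values were 265, 352 and 422 CPM in the pulldowns and 50.5, 52.6 and 66.5 CPM in the inputs. BFD pools 1 to 5 held 188, 405, 387, 332 and 370.2 CPM of Hba-a1 in the pulldowns and 55.3, 52.9, 46.6, 56.8 and 62.8 CPM in the inputs. As for Hba-a2, BFD pool 1 was low in the pulldown and no-odour pool 4 high in the input. HFDlard pools 1, 2, 3, 5 and 6 held 346, 339.8, 345, 341 and 345 CPM of Hba-a1 in the pulldowns and 57.4, 43.7, 57.4, 67.8 and 86.1 CPM in the inputs. The mean level of Hba-a1 was 337 ± 53.9 CPM in the pulldowns and 58.5 ± 13.4 CPM in the inputs (SD, n = 21 each), and no pulldown overlapped with any input. Its fitted log2 ratio was 2.53 ± 0.08 (SE), a 5.79-fold level. For the α pair summed, the log2 ratio was 2.57 ± 0.08.

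Hbb-bs and Hbb-bt encode the adult β-globin chains of this strain. Hbb-bs stood at 648, 623, 671, 719 and 496 CPM in the pulldowns of no-odour pools 1, 2, 3, 4 and 6, beside 120.2, 144, 128, 240.2 and 132 CPM in their inputs. Over the 6 NCD pools the lowest, median and highest Hbb-bs values were 558, 706 and 818 CPM in the pulldowns and 135, 152 and 178 CPM in the inputs. BFD pools 1 to 5 held 446, 917, 853, 753 and 813 CPM of Hbb-bs in the pulldowns and 134, 152, 123, 156 and 169 CPM in the inputs. BFD pool 1 was again the lowest pulldown and no-odour pool 4 the highest input. HFDlard pools 1, 2, 3, 5 and 6 held 783, 754, 761, 781 and 750.4 CPM of Hbb-bs in the pulldowns and 177, 110.0, 164, 177 and 226 CPM in the inputs. All 5 HFDlard pulldowns of Hbb-bs were above all 5 pulldowns without odour, while the inputs of both groups overlapped. The share of all genes that separate in this way was not counted, so nothing is read from it. The fitted log2 change of the Hbb-bs ratio under HFDlard odour was 0.11 ± 0.19 (SE). Hbb-bs averaged 713 ± 114 CPM in the pulldowns and 156 ± 32.5 CPM in the inputs (SD, n = 21 each), without overlap between pulldowns and inputs. The fitted log2 ratio was 2.20 ± 0.07 (SE), a 4.59-fold level.

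Hbb-bt stood at 418, 402, 444, 496 and 352 CPM in the pulldowns of no-odour pools 1, 2, 3, 4 and 6, beside 90.6, 101, 86.6, 172 and 92.7 CPM in their inputs. Over the 6 NCD pools the lowest, median and highest Hbb-bt values were 446, 563 and 618 CPM in the pulldowns and 110.2, 122 and 141 CPM in the inputs. BFD pools 1 to 5 held 323, 671, 647, 562 and 626 CPM of Hbb-bt in the pulldowns and 107, 116, 99.6, 120.5 and 124 CPM in the inputs. The extremes fell in the pools already named for Hbb-bs. HFDlard pools 1, 2, 3, 5 and 6 held 590.1, 605, 588, 594 and 562 CPM of Hbb-bt in the pulldowns and 127, 90.8, 129, 140.5 and 167 CPM in the inputs. Here too the 5 HFDlard pulldowns were above the 5 pulldowns without odour and the inputs overlapped. Again the share of all genes that separate so was not counted, and nothing is read from it. Hbb-bt averaged 531 ± 98.2 CPM in the pulldowns and 119 ± 23.1 CPM in the inputs (SD, n = 21 each), and the groups of pulldowns and inputs did not overlap. Its fitted log2 ratio was 2.16 ± 0.07 (SE), a 4.46-fold level, and that of the β pair summed was 2.18 ± 0.07.

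**Figure D1:**
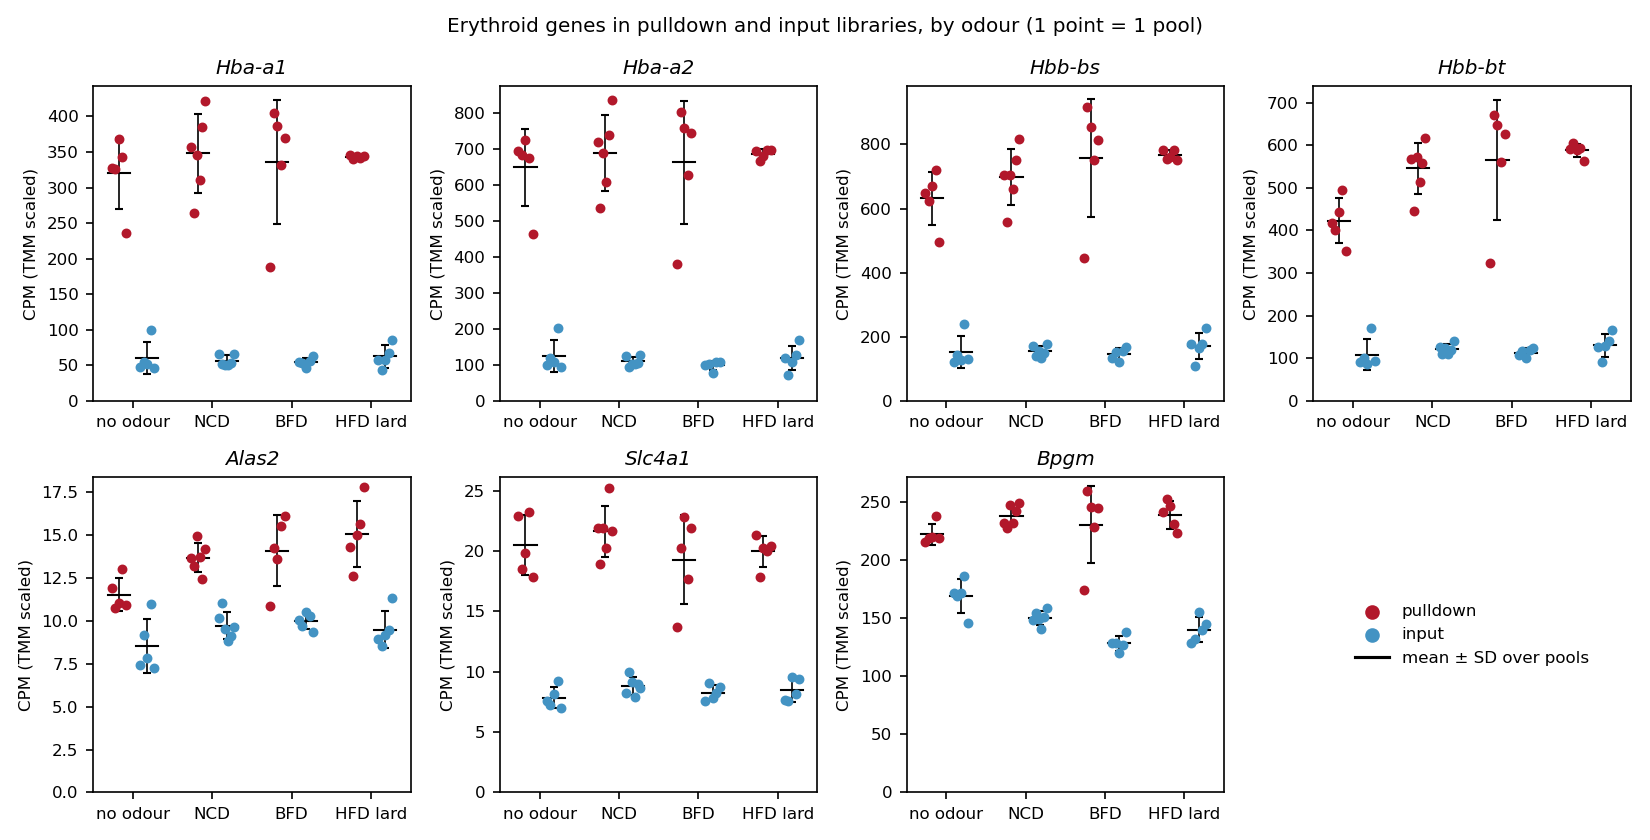
Level of each erythroid member in CPM after TMM scaling (y axis, linear, from 0) in pulldown and input libraries of the 4 odour groups (x axis). Each point is 1 pool and bars give the mean ± SD. All globin pulldowns lie above all globin inputs, with the low BFD pulldown (pool 1) and the high no-odour input (pool 4) visible in each globin panel. How many of all genes separate so was not counted.

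Taken as a sum, the 4 globins held 2253 ± 354 CPM in the pulldowns (1337 to 2796 CPM) and 447 ± 94.9 CPM in the inputs (317 to 714 CPM; SD, n = 21 each). Of all counts they made up 0.139 to 0.273% in the pulldowns and 0.0323 to 0.0613% in the inputs. The ratio per pool averaged 5.19 ± 1.14 and ran from 3.13 in no-odour pool 4 to 7.63 in BFD pool 3. BFD pool 3 held 2645 CPM in the pulldown and 346 CPM in the input. The pool with the highest pulldown, BFD pool 2, had a ratio of 6.59, and the one with the lowest, BFD pool 1, a ratio of 3.36. HFDlard pool 2, at 7.45-fold, had the lowest input of all pools (317 CPM), and HFDlard pool 6, at 3.63-fold, had the next highest input (648 CPM), while their pulldowns were 2364 and 2353 CPM. Per kilobase of transcript, the order of mean levels in the pulldown was Hba-a2 (1213 CPM per kb), Hbb-bs (1135), Hbb-bt (756) and Hba-a1 (483). In the input it was Hbb-bs (249), Hba-a2 (204), Hbb-bt (169) and Hba-a1 (83.6). The SDs over pools in the pulldown were 190.2 CPM per kb for Hba-a2 and 181 for Hbb-bs. Their order within single pools was not tested.

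Slc4a1 encodes band 3, the chloride and bicarbonate exchanger that is the main protein spanning the red cell membrane. Slc4a1 stood at 22.9, 18.5, 19.9, 23.2 and 17.9 CPM in the pulldowns of no-odour pools 1, 2, 3, 4 and 6, beside 7.59, 7.24, 8.18, 9.21 and 7.03 CPM in their inputs. Slc4a1 had a lowest, median and highest value of 18.9, 21.8 and 25.2 CPM over the 6 NCD pulldowns and of 7.92, 8.80 and 9.96 CPM over their inputs. Slc4a1 pulldowns of BFD pools 1 to 5 held 13.7, 20.3, 22.8, 17.6 and 21.9 CPM, and the inputs 7.53, 9.02, 7.85, 8.20 and 8.72 CPM. BFD pool 1 again had the lowest pulldown, but the input of no-odour pool 4 was within the range of the others. Slc4a1 pulldowns of HFDlard pools 1, 2, 3, 5 and 6 held 21.3, 17.9, 20.2, 19.97 and 20.4 CPM, and the inputs 7.63, 7.57, 9.54, 8.11 and 9.37 CPM. All 21 pulldowns were above all 21 inputs, at 20.4 ± 2.48 CPM in the pulldowns and 8.36 ± 0.816 CPM in the inputs (SD, n = 21 each). How many of all genes separate so was not counted. The fitted log2 ratio was 1.28 ± 0.04 (SE), a 2.43-fold level. No-odour pool 1 had the highest ratio, 3.01-fold, and BFD pool 1 the lowest, 1.82-fold. Per kilobase Slc4a1 was at 4.49 CPM in the pulldown and 1.84 CPM in the input, the lowest of the 7 members.

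Alas2 encodes the erythroid form of 5-aminolevulinate synthase, the first enzyme of haem synthesis. Alas2 stood at 11.9, 10.7, 11.03, 13.1 and 10.9 CPM in the pulldowns of no-odour pools 1, 2, 3, 4 and 6, beside 7.44, 9.21, 7.84, 11.01 and 7.26 CPM in their inputs. Alas2 had a lowest, median and highest value of 12.4, 13.7 and 14.9 CPM over the 6 NCD pulldowns and of 8.84, 9.59 and 11.04 CPM over their inputs. Alas2 pulldowns of BFD pools 1 to 5 held 10.9, 14.3, 13.6, 15.6 and 16.1 CPM, and the inputs 10.1, 9.73, 10.5, 10.3 and 9.37 CPM. The ranges of pulldowns and inputs touched: the highest inputs, 11.3 and 11.04 CPM, were above the lowest pulldowns, 10.7 and 10.9 CPM. Alas2 pulldowns of HFDlard pools 1, 2, 3, 5 and 6 held 14.3, 12.6, 15.00, 15.6 and 17.8 CPM, and the inputs 8.96, 8.53, 9.19, 9.49 and 11.3 CPM. Within each of the 21 pools the pulldown was higher than its own input, at 13.6 ± 1.90 CPM in the pulldowns and 9.46 ± 1.11 CPM in the inputs (SD, n = 21 each). The fitted log2 ratio was 0.52 ± 0.04 (SE), a 1.44-fold level. Alas2 overlaps Apex2, a DNA repair gene on the opposite strand, and 11.8% of its 31-base words were shared with that gene. Whether counting used the strand is not given in the sources used here, so reads of the overlap cannot be told apart. Apex2 itself had a log2 ratio of 0.16 ± 0.04. Per kilobase Alas2 was at 6.68 CPM in the pulldown and 4.64 CPM in the input.

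Bpgm encodes bisphosphoglycerate mutase, which makes the 2,3-bisphosphoglycerate that lowers the oxygen affinity of haemoglobin. Bpgm stood at 216, 219, 220.2, 239 and 219.6 CPM in the pulldowns of no-odour pools 1, 2, 3, 4 and 6, beside 172, 169.7, 172, 187 and 146 CPM in their inputs. Bpgm had a lowest, median and highest value of 228, 237 and 249 CPM over the 6 NCD pulldowns and of 141, 151 and 159 CPM over their inputs. Bpgm pulldowns of BFD pools 1 to 5 held 174, 259.8, 246, 229 and 245 CPM, and the inputs 129, 129, 120.4, 127 and 138 CPM. The BFD inputs were all below the no-odour inputs. The share of all genes whose inputs separate so was not counted. Bpgm pulldowns of HFDlard pools 1, 2, 3, 5 and 6 held 242, 253, 247, 232 and 223 CPM, and the inputs 129, 132, 156, 140.1 and 145 CPM. Pulldown and input again ranged into each other across groups, since the BFD pulldown of pool 1 was below the no-odour input of pool 4, yet in each of the 21 pools the pulldown was higher. Bpgm averaged 233 ± 18.3 CPM in the pulldowns and 147 ± 17.5 CPM in the inputs (SD, n = 21 each), and its fitted log2 ratio was 0.67 ± 0.03 (SE), a 1.59-fold level. At 105 CPM per kb in the pulldown and 66.4 in the input, Bpgm stood far above Alas2 and Slc4a1, and its input level was near that of Hba-a1 (83.6 CPM per kb).

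Over the 21168 genes with enough counts for the fit the median log2 ratio was -0.04. Ranked among them, 38 had a higher ratio than Hba-a2, 43 than Hba-a1, 71 than Hbb-bs and 76 than Hbb-bt. For Slc4a1 the number was 784 (3.70%), for Bpgm 3477 (16.4%) and for Alas2 4484 (21.2%). Without BFD pool 1 the log2 ratios were 2.58 for Hba-a1, 2.63 for Hba-a2, 2.24 for Hbb-bs, 2.20 for Hbb-bt, 1.30 for Slc4a1, 0.54 for Alas2 and 0.69 for Bpgm. Without no-odour pool 4 they were 2.58, 2.63, 2.23, 2.19, 1.28, 0.53 and 0.67 in that order, so neither pool moved a ratio by as much as its spread between pools.

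**Figure D2:**
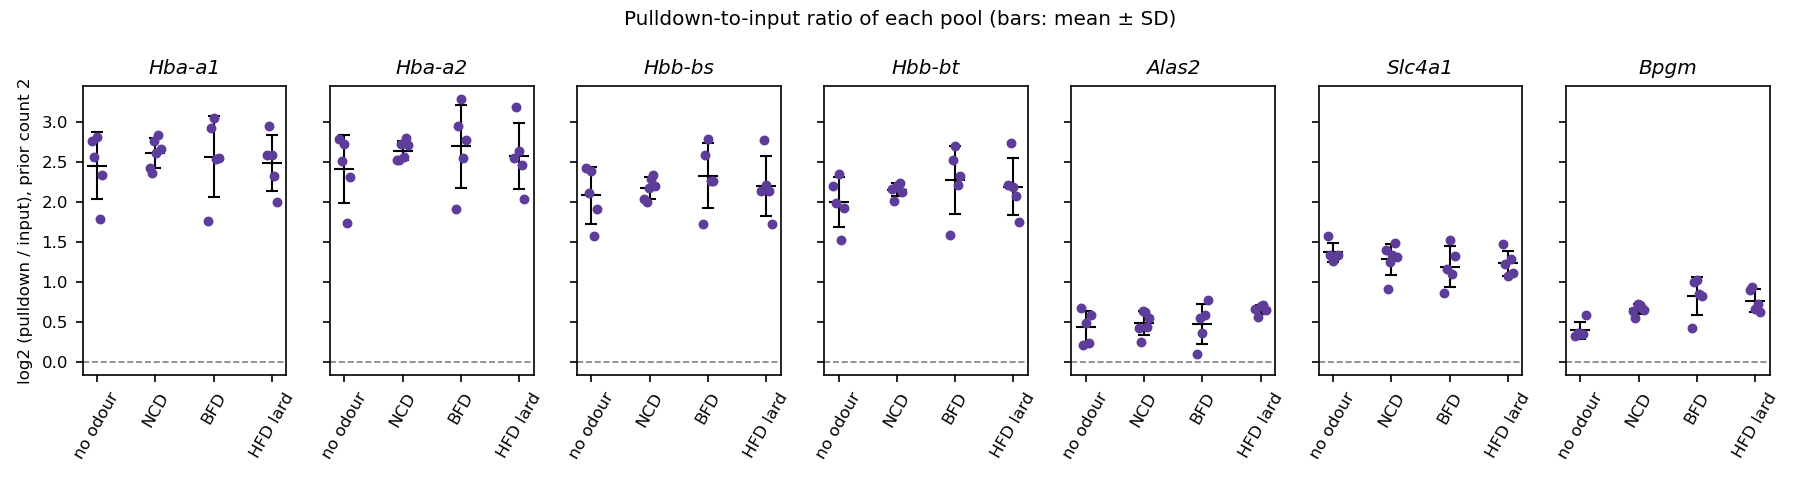
log2 ratio of pulldown to input (y axis, prior count 2) for the 7 members in each pool, by odour group (x axis); points are pools and bars the mean ± SD. All points lie above 0 for every member, the globins between 1.53 and 3.29, Slc4a1 between 0.86 and 1.58, and Alas2 and Bpgm nearer to 0.

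Across odours, the question was whether the pulldown-to-input ratio moved from that without odour. For NCD odour the fitted log2 changes were 0.16 ± 0.22 for Hba-a1, 0.22 ± 0.22 for Hba-a2, 0.09 ± 0.18 for Hbb-bs and 0.16 ± 0.17 for Hbb-bt (SE). Slc4a1 changed by -0.09 ± 0.12, Alas2 by 0.05 ± 0.12 and Bpgm by 0.26 ± 0.09. The globin changes were thus no larger than about their errors. For BFD odour the globin changes were 0.12 ± 0.23, 0.28 ± 0.23, 0.25 ± 0.19 and 0.27 ± 0.18 in the same order, with Slc4a1 at -0.18 ± 0.12, Alas2 at 0.04 ± 0.12 and Bpgm at 0.43 ± 0.10. For HFDlard odour they were 0.03 ± 0.22, 0.15 ± 0.23, 0.11 ± 0.19 and 0.19 ± 0.18, with Slc4a1 at -0.14 ± 0.12, Alas2 at 0.22 ± 0.12 and Bpgm at 0.37 ± 0.10. These changes are descriptions, since the members were chosen on the same values. These 3 comparisons share the pools without odour.

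The globin values depended on which pools were in. Leaving out BFD pool 1 raised the BFD changes to 0.32 for Hba-a1, 0.47 for Hba-a2, 0.39 for Hbb-bs and 0.44 for Hbb-bt. Leaving out no-odour pool 4 lowered them to -0.05, 0.11, 0.12 and 0.15, and took the NCD changes to -0.01, 0.05, -0.04 and 0.04 and the HFDlard changes to -0.13, -0.02, -0.01 and 0.07. Several globin changes thus turned sign without that pool. The change of Bpgm under BFD was 0.53 without BFD pool 1 and 0.42 without no-odour pool 4, but 0.19 with plain CPM in place of TMM scaling. Its log2 ratio was 0.33, 0.37, 0.36, 0.35 and 0.59 in the 5 pools without odour and 0.62 to 0.94 in the 5 HFDlard pools, with no overlap. In the NCD pools it was 0.56 to 0.72, and in the BFD pools 0.43 in pool 1 and 0.82 to 1.03 in the others. For HFDlard odour 29.8% of all genes had an unadjusted p under 0.05 (edgeR's quasi-likelihood test). The share of all genes without overlap was not counted, so nothing is read from that of Bpgm. The Bpgm input, 169 ± 14.6 CPM without odour, was 151 ± 5.99 with NCD, 129 ± 6.50 with BFD and 140.5 ± 10.7 CPM with HFDlard, while its pulldowns averaged 223, 239, 231 and 239 CPM.

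In the input alone, levels relative to the library were compared between all 16 pools with an odour and the 5 without. The ribosomal RNA share differed between these groups of inputs too, and its part was not tested. Bpgm had a log2 difference of -0.27 ± 0.05 (SE). The others differed by -0.19 ± 0.16 for Hba-a2, -0.05 ± 0.15 for Hba-a1, 0.04 ± 0.14 for Hbb-bs, 0.17 ± 0.13 for Hbb-bt, 0.12 ± 0.07 for Slc4a1 and 0.20 ± 0.08 for Alas2. The globin differences turned on no-odour pool 4. Without it they were 0.06 ± 0.14 for Hba-a2, 0.21 ± 0.12 for Hba-a1, 0.27 ± 0.12 for Hbb-bs and 0.40 ± 0.10 for Hbb-bt, with Slc4a1 at 0.19 ± 0.08, Alas2 at 0.31 ± 0.08 and Bpgm at -0.23 ± 0.05. Without BFD pool 1 they were -0.19 for Hba-a2, -0.05 for Hba-a1, 0.05 for Hbb-bs, 0.18 for Hbb-bt, 0.13 for Slc4a1, 0.19 for Alas2 and -0.27 for Bpgm. These differences are descriptions too.

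The makeup of the globin reads differed between the library types. The summed CPM of the α pair over that of the β pair was 0.815 ± 0.078 in the pulldowns and 0.622 ± 0.058 in the inputs (SD, n = 21 each), and it was higher in the pulldown in 21 of 21 pools. It also differed between odour groups within a library type. In the pulldowns it was 0.917 ± 0.080 without odour, 0.828 ± 0.037 with NCD, 0.753 ± 0.018 with BFD and 0.761 ± 0.019 with HFDlard odour. In the inputs it was 0.704 ± 0.050, 0.600 ± 0.032, 0.593 ± 0.033 and 0.598 ± 0.034. The 5 no-odour pulldowns (0.823 to 0.984) did not overlap with the BFD (0.729 to 0.773) and HFDlard (0.739 to 0.792) pulldowns, and overlapped with those of NCD (0.782 to 0.876). Without no-odour pool 4 the no-odour mean was 0.937 ± 0.077 in the pulldowns and 0.696 ± 0.054 in the inputs, and without BFD pool 1 the BFD mean was 0.757 ± 0.019 and 0.579 ± 0.015. Hbb-bt made up 40.1 ± 1.03% of the β pair in the 5 no-odour pulldowns (39.2 to 41.5%) and 43.4 ± 0.851% in the 16 pulldowns with odour (42 to 44.8%), which did not overlap. In the inputs the shares were 41.5% (40.4 to 43.0%) and 43.8% (41.9 to 45.2%), which overlapped. Hba-a2 made up 65.4 to 67.9% of the α pair in the pulldowns and 62.4 to 68.5% in the inputs. These shares are descriptions, with no test, and the higher ribosomal RNA share of the no-odour libraries moved with them. The Hbb-bt and Hba-a2 shares rest on the counting program's division of shared reads, so they are uncertain as values of single copies. How many other gene pairs separate by odour in this way was not counted.

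**Figure D3:**
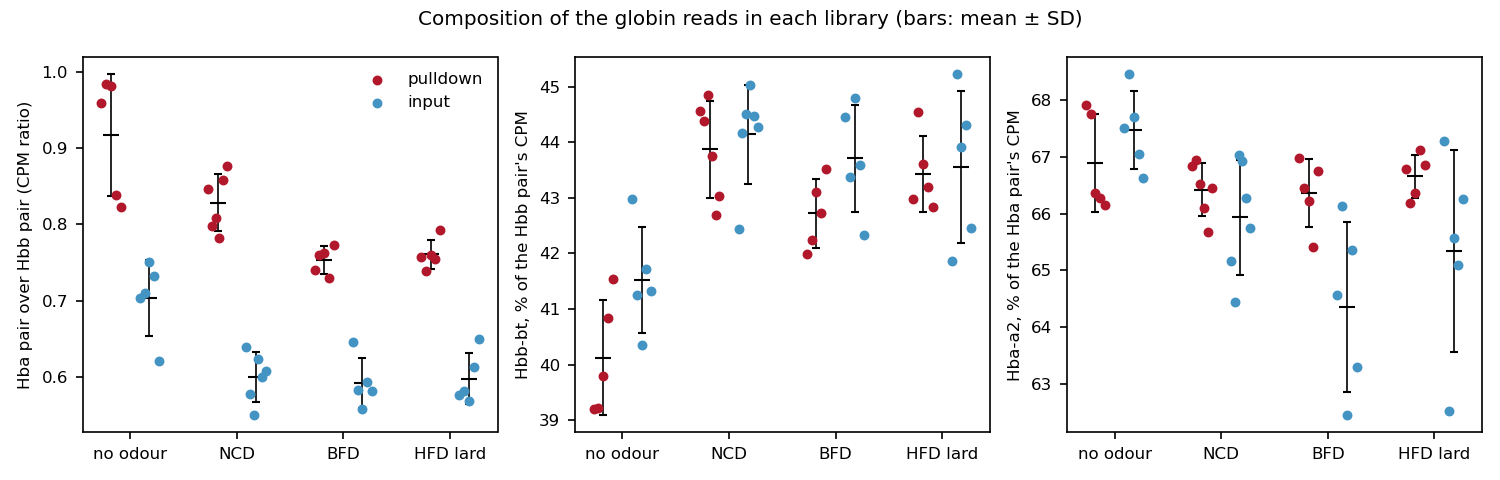
Makeup of the globin counts in each library, by odour group (x axis), for pulldowns and inputs: the CPM of the α pair over the β pair and the share of 1 copy within a pair. Points are pools and bars the mean ± SD. The α over β ratio is higher in pulldowns than in inputs, and the no-odour pulldowns have the highest ratio and the lowest Hbb-bt share.

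Beside the members, 69 other erythroid genes were listed from knowledge of the lineage. Earlier results of these data were known when the lists were made, so the calls below are not independent of the data. Of the 69 genes, 60 had enough counts to be fitted. The threshold was an adjusted p under 0.001 (edgeR's quasi-likelihood test, Benjamini-Hochberg over all genes). Of the 60, 31 were higher in the pulldown, where 32.3% of all genes were, 18 were lower (34.8% of all) and 11 did not pass. However, Hbq1b, Rhd, Kel, Pklr, Trim58 and Gata1 did not have enough counts in the inputs alone. They entered through the pulldowns, where most of them were higher, and their ratios are given with no test. Of the 54 genes with enough counts in the inputs too, 26 were higher (32.4% of all such genes), 18 lower (36.1%) and 10 did not pass. Their median log2 ratio was 0.18, against -0.05 for all such genes. The embryonic and theta globins were nearly silent. Over all 42 libraries Hbb-y had 33 counts, Hba-x 36, Hbq1a 30, Hbb-bh1 7, Hbb-bh3 3, Hbb-bh0 1 and Hbb-bh2 0. The theta globin gene Hbq1b had 288 counts, at 0.399 ± 0.202 CPM in the pulldowns and 0.0612 ± 0.0398 CPM in the inputs (SD, n = 21 each). Its pulldown was above its input in 21 of 21 pools. As Hbq1b entered only through the pulldowns, nothing is read from that direction.

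Of the listed genes that serve as markers of red cells and their precursors, 6 had enough counts in the inputs: Epb42, Hemgn, Klf1, Rhag, Ermap and Tmod1. Epb42, for protein 4.2 of the membrane skeleton, stood at 2.26 ± 0.597 CPM in the pulldowns and 1.03 ± 0.260 CPM in the inputs (SD, n = 21 each), a log2 ratio of 1.11 ± 0.10 (SE). Hemgn, a nuclear protein of erythroid precursors, had 4.51 ± 0.812 and 2.07 ± 0.517 CPM and a ratio of 1.13 ± 0.08. Hemgn and Epb42 were higher in the pulldown in 21 of 21 pools. The transcription factor gene Klf1 (1.84 against 0.867 CPM) had a log2 ratio of 1.12 ± 0.12. Rhag and Ermap did not pass, at 0.32 ± 0.18 (adjusted p = 0.108) and -0.07 ± 0.06 (adjusted p = 0.292). Tmod1, for the tropomodulin that caps actin filaments, was lower in the pulldowns, at 13.6 ± 4.88 CPM against 44.9 ± 2.88 CPM in the inputs, a log2 ratio of -1.76 ± 0.09. Epb42, Hemgn and Klf1 thus passed as higher, 1 of the 6 was lower and 2 did not pass. Among the markers with too few input counts for a test, the blood group genes Rhd and Kel averaged 0.367 and 0.348 CPM in the pulldowns and 0.163 and 0.140 CPM in the inputs, and the transcription factor gene Gata1 0.517 and 0.242 CPM.

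The lists did not move alike. Of the 17 genes of haem synthesis and iron handling, 6 were higher in the pulldown, 9 lower and 2 did not pass, with a median log2 ratio of -0.30. Slc25a39, a mitochondrial carrier, was higher by 1.14 ± 0.04, at 79.0 ± 8.16 against 35.7 ± 3.61 CPM. Urod, an enzyme of the haem pathway, was lower, at a log2 ratio of -0.77 ± 0.04, Blvrb, a biliverdin reductase, had -1.39 ± 0.06, and Slc11a2, an iron transporter, had -0.86 ± 0.05. These lower genes were at 31.7, 56.1 and 64.2 CPM in the pulldowns and at 54.4, 149 and 116 CPM in the inputs. Haem pathway enzymes other than Alas2 are made in most cells, and the highest log2 ratio of the 17 genes was 1.35, for Glrx5.

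Of 15 genes of the red cell membrane and skeleton tested with enough input counts, 6 were higher, 6 lower and 3 did not pass, with a median of -0.07. With Rhd and Kel the median was 0.26. Besides Tmod1, Dmtn, for the actin-bundling protein dematin, had a log2 ratio of 0.75 ± 0.03 at 145 ± 12 against 85.9 ± 6.01 CPM, and Aqp1, the water channel also known from endothelium, had -1.51 ± 0.07 at 20.7 ± 7.47 against 57.2 ± 10.7 CPM. Add2, for β-adducin, had 0.45 ± 0.04. Of 14 such genes of the reticulocyte cytosol and of maturation, 7 were higher, 3 lower and 4 did not pass, with a median of 0.14. Trim10, which acts in terminal erythroid differentiation, had a ratio between those of the α-globins, 2.54 ± 0.09, at 4.86 ± 1.28 against 0.827 ± 0.219 CPM. Gpx1, a glutathione peroxidase, had 1.16 ± 0.05, Mkrn1, a ubiquitin ligase, 0.57 ± 0.03 and Bnip3l, which acts in the removal of mitochondria from reticulocytes, -0.66 ± 0.04. Of 8 such genes of erythroid transcription and the erythropoietin signal, 7 were higher, 0 lower and 1 did not pass, with a median of 0.67. Lmo2, a partner of Gata1 and Tal1, had 0.81 ± 0.03 at 61.5 against 34.9 CPM, Zfpm1 0.72 ± 0.07 and Bcl11a, which sensory neurons also express, 0.32 ± 0.02 at 149.9 against 120.1 CPM. Around Bpgm, 1 of 11 glycolysis genes was higher (Eno1, 0.22 ± 0.03), 7 were lower and 3 did not pass, with a median of -0.17. Many of the listed genes are also made by cells of the olfactory epithelium, and their ratios are those of all these cells together.

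**Figure D4:**
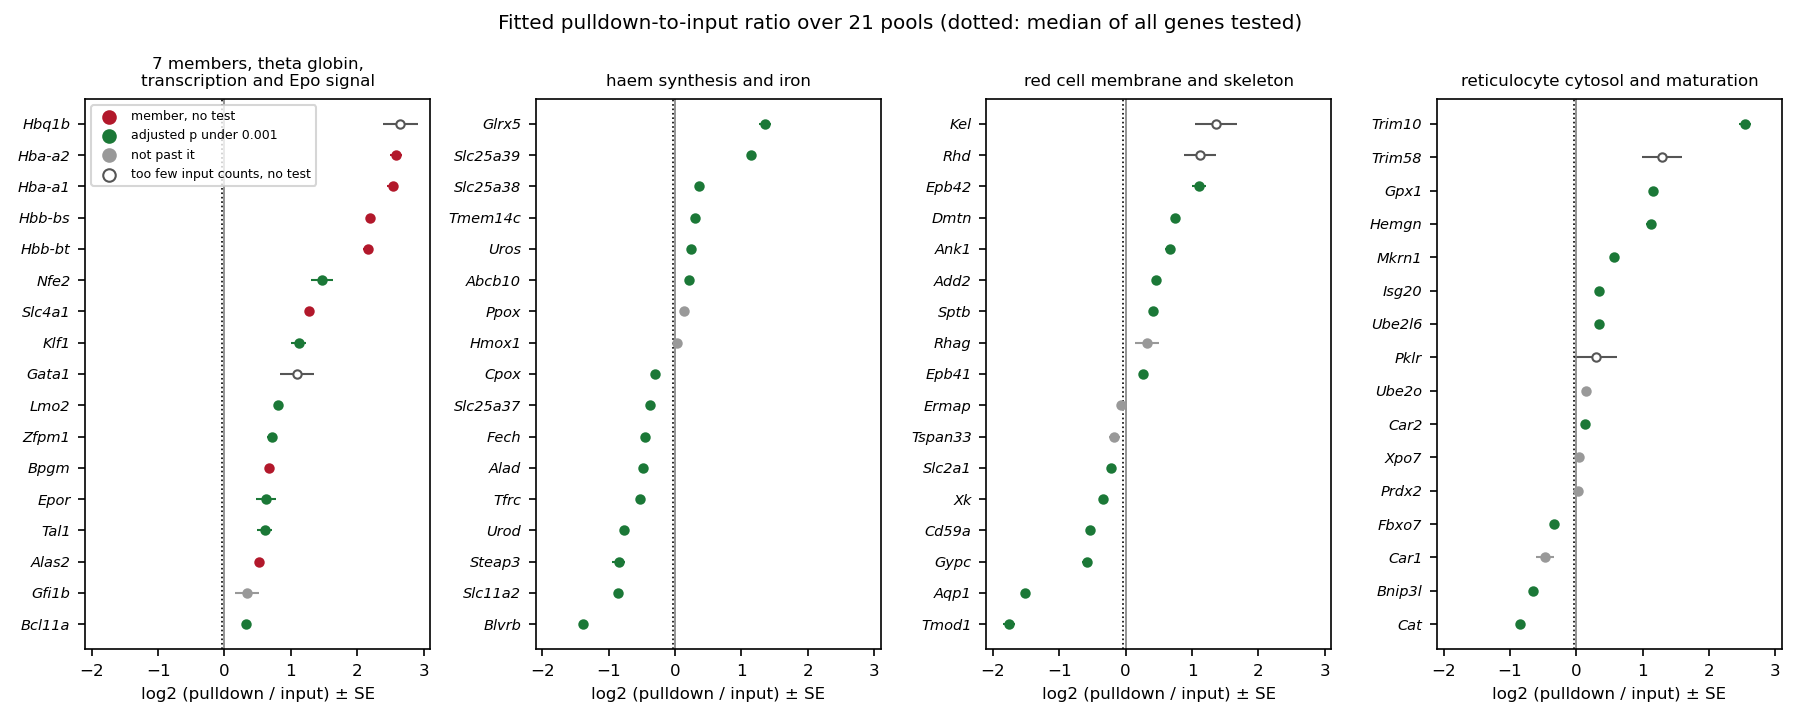
Fitted log2 ratio of pulldown to input with its SE (x axis) for the members and for each fitted gene of the other erythroid lists (y axis, 1 gene per line). Colours mark members, genes past an adjusted p of 0.001 and genes not past it, open points genes with too few counts in the inputs for a test, and the dotted line the median of all genes, -0.04. Globins, Hbq1b and Trim10 lie farthest to the right, and the haem genes lie on both sides of 0.

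For NCD odour 1 of the 60 other erythroid genes passed, where 0.576% of all genes did in either direction. The ratio of Epb41, for protein 4.1 of the membrane skeleton, was lower by a log2 change of -0.52 ± 0.09 (SE; edgeR quasi-likelihood, adjusted p = 0.0007). For BFD odour 2 of 60 passed, against 4.23% of all genes. Epb41 changed by -0.60 ± 0.09 (adjusted p = 9.43e-05) and Add2 by -0.56 ± 0.11 (adjusted p = 0.000611). For HFDlard odour 0 passed by edgeR's quasi-likelihood test, against 1.30% of all genes, and 4 by DESeq2. The share of all genes by DESeq2 is not given, so nothing is read from those 4. An unadjusted p under 0.05 was reached by 18 of the 60 for NCD, 16 for BFD and 15 for HFDlard odour, and by 28.3, 33.6 and 29.8% of all genes. In each of the 3 cases that passed the group means of pulldown and input moved in opposite directions. Epb41 inputs averaged 81.2 ± 12.1 CPM without odour and 100.3 to 108 CPM with odour, while its pulldowns averaged 126 CPM without and 112 to 116 CPM with odour. Epb41 and Add2 are also neuronal genes.

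The 3 calls differed in how they held when 1 pool was left out. Epb41 under NCD no longer passed without no-odour pool 1, 2 or 3, without any one of the 6 NCD pools, or without BFD pool 2, 4 or 5 or HFDlard pool 1, 3 or 5. Add2 under BFD was lost without no-odour pool 2 or 3 and without BFD pool 2, 3, 4 or 5, while Epb41 under BFD passed in all 21 such refits. Without BFD pool 1, 4 genes passed for BFD odour, Gpx1 and the ubiquitin-conjugating enzyme gene Ube2l6 being added, and without no-odour pool 6, Add2 passed for HFDlard odour. Where no gene of a list passed, the smallest adjusted p-values were those of Tfrc (0.0257) and Ppox (0.0587) for haem, Ube2o (0.013) and Gpx1 (0.0323) for maturation and Zfpm1 (0.149) and Gata1 (0.539) for transcription under NCD. Under BFD they were Glrx5 (0.00578) and Alad (0.00758) for haem, Gpx1 (0.00183) and Ube2l6 (0.00191) for maturation and Zfpm1 (0.0281) and Lmo2 (0.208) for transcription. Under HFDlard they were Steap3 (0.00404) and Tmem14c (0.0442) for haem, Add2 (0.00193) and Epb41 (0.00267) for the membrane, Gpx1 (0.00381) and Ube2o (0.00504) for maturation, and Lmo2 (0.0322) and Klf1 (0.464) for transcription. Between the food odours 0 of 60 passed by edgeR's quasi-likelihood test, against 0.0567% of all genes in at least 1 of the 3 differences, and 0 by DESeq2. The smallest adjusted p by edgeR was 0.311. By the same test an unadjusted p under 0.05 was reached by 6 of 60 for BFD over NCD (8.85% of all genes). For HFDlard over NCD it was 3 (4.64%) and for HFDlard over BFD 6 (9.19%). In at least 1 of the 3 differences it was 10, for which the share of all genes is not given.

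In the inputs, 54 of the other erythroid genes could be tested for any odour against none, of which 3 were higher, 3 lower and 48 did not pass. Of all 20451 genes tested in the inputs 5.38% were higher and 6.59% lower, so these counts were near the background. Higher with odour were Epb41 at a log2 difference of 0.38 ± 0.07, Add2 at 0.44 ± 0.08 and Ube2o, for a ubiquitin ligase of reticulocyte maturation, at 0.55 ± 0.11. Lower were Aqp1 at -0.50 ± 0.06 (73.8 ± 7.59 CPM without odour, 51.7 to 52.5 with), the haem oxygenase gene Hmox1 at -0.38 ± 0.07 and the glutaredoxin gene Glrx5 at -0.87 ± 0.17. With the pool number as a block 3 passed, Epb41, Add2 and Aqp1. Without no-odour pool 2 the count was 3, the same genes as with the block.

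Markers of other cells that blood or mucosa could bring were summed over their lists. The 11 neutrophil genes held 161 to 279.6 CPM in the pulldowns and 105 to 172 CPM in the inputs. Of these, 6 were higher in the pulldown, 2 lower and 3 did not pass, with the abundant S100a8 (1.93 ± 0.08) and S100a9 (1.75 ± 0.09) highest and Mpo (-1.12 ± 0.12) lower. Of 7 tested platelet genes 5 were higher, 1 lower and 1 did not pass, led by Pf4 at 1.48 ± 0.09, and their sum was 11.7 to 17.1 CPM in pulldowns and 9.78 to 14.1 CPM in inputs. Of 8 macrophage genes 5 were higher, 1 lower and 2 did not pass. Of 10 endothelial genes 2 were higher and 8 lower, of 8 B cell genes 1 was higher, 5 lower and 2 did not pass, and of 5 supporting cell genes 5 were lower, with a median log2 ratio of -2.20. Of 10 genes of mature sensory neurons 7 were higher, 2 lower and 1 did not pass, with a median of 0.42 and summed levels of 16565 to 24791 CPM in the pulldowns. The macrophage sum in the pulldowns was 265 to 313 CPM without odour and 171 to 203 CPM with odour, without overlap, whereas the 7 members summed to 1795 to 2508 and 1536 to 3090 CPM, which overlapped. The part of these cells in the members' ratios was not tested. The share of all genes whose pulldowns separate by odour was not counted.

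The globin transcripts are short, 554 to 703 bases, and the ratio moved with transcript length over all genes. Genes of up to 500 bases had a median log2 ratio of 0.20, those of 500 to 800 bases 0.59, and those longer than 6000 bases -0.25. Among the 969 genes of 500 to 800 bases the 90th percentile was 1.49. In that class 14 genes had a higher ratio than Hba-a2, 16 than Hba-a1, 24 than Hbb-bs and 27 than Hbb-bt, or 1.45, 1.65, 2.48 and 2.79% of them. The part of length in the globin ratios was not tested beyond these ranks. Slc4a1, whose transcript has 4545 bases, was in a class (3000 to 6000 bases) with a median of -0.12 and a 90th percentile of 0.61, and its own ratio was 1.28.

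**Figure D5:**
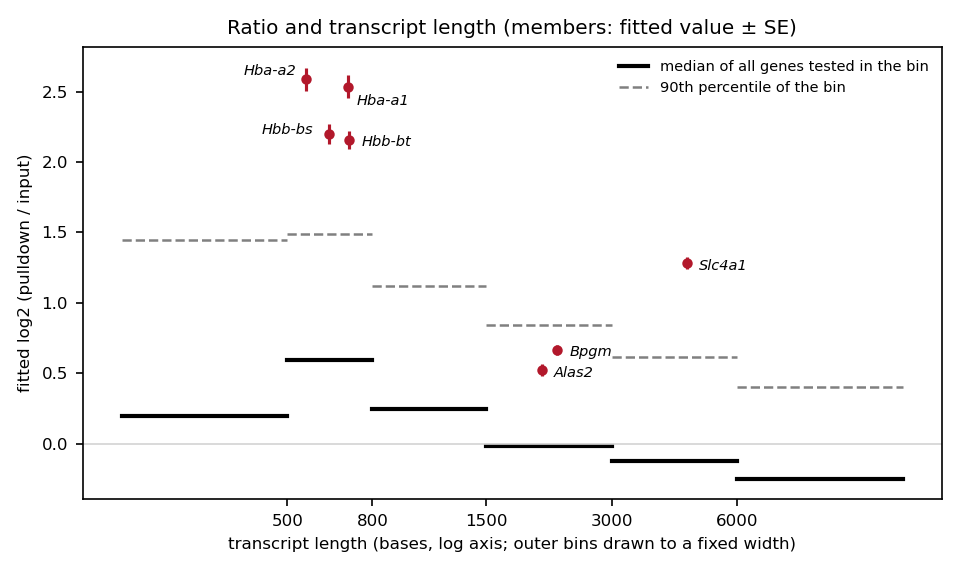
Fitted log2 ratio of pulldown to input (y axis) against transcript length in bases (x axis, log scale) for the 7 members (points with SE), with the median and the 90th percentile of all genes tested in each length class. The 4 globins and Slc4a1 lie above the 90th percentile of their class, and Alas2 and Bpgm below it.

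The genes whose pattern was most like that of the 4 summed globins were found by Pearson's r of the deviations from the odour group means over 21 pools, given without a p since all points share libraries and depth. In the inputs they were Ndufa4 (r = 0.984), Cox5a, Stmn1, Elob, S100a5, Ssu72, Higd2a, Atp5o, Psmd8 and Atox1 (0.977). Most of these encode small proteins of the mitochondria or cytosol, on transcripts of 431 to 1540 bases, and none of them is in the erythroid lists. For the log2 ratio they were Cox8a (0.978), S100a9 (0.975), Mrps21, Atox1, Ndufb8, Timm8b, Uqcr10, Tomm6, Nme3 and Mt1 (0.967), on transcripts of 434 to 749 bases. In all, 1353 genes (6.39%) reached an r of 0.8 in the inputs and 803 (3.79%) in the ratio, and their median lengths were 1300 and 1115 bases against 2673 bases for all genes tested. The other members followed the globins less closely: r was 0.71 for Alas2, 0.54 for Slc4a1 and 0.57 for Bpgm in the inputs, and 0.37, 0.53 and 0.67 in the ratio.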

How the data were processed

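RNA sequencing libraries were made from 21 pulldowns and the 21 inputs of the same homogenates, so each pulldown was paired with its input. The authors deposited 1 table of estimated counts per gene, made with Salmon in the nf-core RNA-seq pipeline on GRCm38, and 30.9% of its values are not whole. The aligner settings and the use of strand are not given in the sources used here. The members and all gene lists were chosen with earlier results of these data known. Estimated counts were rounded to whole numbers and fitted with edgeR 4.0.16 in R 4.3.3 (TMM scaling, filterByExpr with a minimum count of 10, robust quasi-likelihood test, 1 term per pool and pulldown-by-odour terms, all 42 libraries). The pulldown-to-input ratio is the mean of the 4 odour groups, and SE is the fitted change over the square root of F. P-values were adjusted over all genes tested (Benjamini-Hochberg) and called under 0.001, the threshold of the study. Per-pool log2 ratios used a prior count of 2. The inputs alone were fitted by odour group. DESeq2 1.42.0, other scalings and filters, other blocks and leaving out each pool were tried. The fit was tested on simulated counts with known changes. Named genes were the 7 members, the erythroid markers, and of each other erythroid list up to 4 genes with the smallest p-values past the threshold, or the 2 smallest where none passed. A few listed genes are not reported here, and all lists and counts are given without them. The 10 genes most like the 4 summed globins were added. The pairing comes from the shared homogenate. As a check, the deviations of both libraries of a pool from the means of their groups correlated across genes with a median r of 0.0144 over 21 pools, so this measure does not show the pairing. Depth was 24839555 to 36781553 counts per library, and intervals of counting error were not needed for any share given. Whether pools of a group came from separate exposures is not stated, so p-values measure the spread between these pools.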

Additional observations from a re-analysis of the deposited data

Results flagged for a closer look

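Of 84 group values of the members checked for 1 pool far from the rest (log2 CPM or log2 ratio, groups of 5 or 6 pools), 12 held such a pool. Chance gives about 1 in 20 groups, and the genes of a library are not independent. In the input of no-odour pool 4 the log2 CPM was 6.64 for Hba-a1 (median of the others 5.65), 7.91 for Hbb-bs (7.02) and 7.43 for Hbb-bt (6.52). In the pulldown of BFD pool 1 it was 7.55 for Hba-a1 (8.56), 8.80 for Hbb-bs (9.70) and 8.33 for Hbb-bt (9.31). In the pulldown of no-odour pool 6 it was 7.89 for Hba-a1 (8.39) and 8.85 for Hba-a2 (9.43). Hba-a2 was at 6.28 in the input of BFD pool 3 (6.72), and Bpgm at 7.90 in the pulldown of no-odour pool 4 (7.78). The log2 ratio of Slc4a1 was 1.58 in no-odour pool 1 (1.33) and that of Bpgm was 0.59 in no-odour pool 6 (0.35).

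The pulldown-to-input ratio of 2 other erythroid genes differed between odour groups by the test of the difference. Epb41 changed by -0.52 under NCD and -0.60 under BFD odour, and Add2 by -0.56 under BFD odour. In the inputs these genes moved the other way, and the higher ribosomal RNA share of the no-odour libraries moved with them. The part of that share was not tested.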

How the results depend on the processing

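All 147 member ratios left after removing 1 pool, and all 60 under other settings, moved by less than the spread between pools, and 0 changed sign. The 441 odour changes of members after removing 1 pool also moved by less than that spread, though 14 had the other sign, and so did 198 of 201 under other settings, where 9 had the other sign. With plain CPM the BFD changes were -0.21 for Alas2, -0.42 for Slc4a1 and 0.19 for Bpgm. For the other erythroid genes, pulldown against input gave 48 to 53 calls under other settings and 47 to 49 without 1 pool, against 49. Counting only genes with enough counts in the inputs alone, chosen after seeing the data, gave 44. An adjusted p under 0.05 gave 6 for NCD, 14 for BFD, 8 for HFDlard and 23 for the inputs. DESeq2 gave 6 for BFD, 4 for HFDlard and 10 for the inputs, and edgeR with DESeq2's size factors 0 for NCD. The share of all genes at that threshold and under the other settings is not given. Nothing about erythroid genes is therefore read from these counts. No filter beyond 1 count gave 1 for HFDlard. With no replicate block there were 1, 3 and 1 calls for NCD, BFD and HFDlard, and 49 for pulldown against input. With the replicate block by number there were 0, 1 and 0, and 48. In the inputs the replicate block by number gave 3 calls in place of 6. With only the compared groups there were 0, 0 and 0. Without 1 pool the counts ran from 0 to 1 for NCD, 1 to 4 for BFD (4 without BFD pool 1), 0 to 1 for HFDlard, 3 to 8 for the inputs and 0 to 0 between food odours. The cause of these differences was not tested. Libraries with the same number in different odour groups had deviations correlating with a median r of 0.0174 (-0.344 to 0.156). Not every pair was above 0.1 and the labels do not say that a number marks something shared, so pools were not paired across groups. Counts under 10 limited the embryonic globins.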
